A study of Mus musculus with 18 samples.

Results

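The genes described here are 10 feedback and output genes of the RAS and MAP kinase (MAPK) pathway. The feedback genes are the dual-specificity phosphatase genes Dusp1, Dusp2, Dusp4, Dusp5, Dusp6 and Dusp10, the Sprouty genes Spry1 and Spry2, and the Sprouty-related gene Spred1. The transcription factor gene Etv5 is an output of the pathway. A member was taken from the array table where a probe set, the group of probes that reads 1 transcript, mapped to that gene symbol alone, and the probe set with the highest mean was kept where a gene had more than 1. All 10 members had such a probe set, out of 22180 genes in the table. This rule reads names and mean levels only, but the genes it lists were chosen with earlier results of these data known.

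The study asked how mouse leukemia cells and normal blood progenitors respond to reprogramming, either by transgenic factors or by small molecules. The leukemia cells (AML) were GFP-positive acute myeloid leukemia cells driven by the MLL-AF9 fusion oncogene, with bone marrow given as their tissue. The normal cells (LSK) were lineage-negative, Kit-positive, Sca1-positive cells, the marrow fraction in which hematopoietic stem and progenitor cells are concentrated. Both came from 4F mice, which carry 4 transgenes that doxycycline (Dox) switches on (c-Myc, Klf4, Sox2 and Oct4, the last with the gene symbol Pou5f1), so the control cells carry the transgenes too. The AML Dox and LSK Dox groups received Dox for 24 h in vitro, and the AML Compound and LSK Compound groups received a cocktail for 24 h: VPA, which inhibits histone deacetylases, CHIR, which inhibits GSK3, 616452, which inhibits the TGF-beta receptor, and TCP, which inhibits LSD1. The AML Control and LSK Control groups received neither, and the labels do not say plainly whether they were also kept 24 h in culture. There were 18 arrays, 3 in each of 6 groups. The titles call them biological repeats, but no label names separate animals or cultures. The p-values therefore measure the spread among the arrays of a group, part of which may be technical. No Dox-treated cells without the transgenes are among these groups, so the effects of Dox and of the factors cannot be told apart.

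In the MAPK pathway, receptors activate RAS, RAS activates RAF kinases, and these pass the signal through MEK to ERK, while parallel arms end in the kinases JNK and p38. Active ERK switches on genes whose products shut the pathway down again: dual-specificity phosphatases remove the activating phosphates from MAP kinases, and Sprouty and Spred proteins act upstream, between receptor and RAF. In blood progenitors the pathway carries signals from cytokine receptors such as Kit, Flt3 and the colony-stimulating factor receptors, and mutations that activate it are frequent in myeloid leukemia.

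The stretches of 250 bases just before the transcription start are given first for 4 chosen members, so that the letters stand beside the values below. They are from RefSeq (GRCm38.p6), run 5′ to 3′ on the gene's own strand, and end at the base before the start. Dusp5 (chr19:53528895-53529144, plus strand) and Dusp1 (chr17:26508473-26508722, minus strand) held searched motifs, which stand in capitals. Dusp6 (chr10:99262981-99263230, plus strand) and Spry2 (chr14:105896820-105897069, minus strand) held none of them. The Dusp2 stretch, which also held a searched motif, is not printed.
Dusp5: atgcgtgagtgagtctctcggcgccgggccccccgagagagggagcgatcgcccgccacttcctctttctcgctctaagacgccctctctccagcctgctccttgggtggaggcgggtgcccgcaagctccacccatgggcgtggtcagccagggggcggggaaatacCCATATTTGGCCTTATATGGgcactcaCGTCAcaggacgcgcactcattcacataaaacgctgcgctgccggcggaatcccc
Dusp1: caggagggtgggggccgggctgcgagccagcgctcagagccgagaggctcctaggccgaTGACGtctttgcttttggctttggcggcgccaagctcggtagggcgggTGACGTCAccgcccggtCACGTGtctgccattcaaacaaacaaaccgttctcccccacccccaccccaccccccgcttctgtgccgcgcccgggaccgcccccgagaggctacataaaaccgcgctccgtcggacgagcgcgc
Dusp6: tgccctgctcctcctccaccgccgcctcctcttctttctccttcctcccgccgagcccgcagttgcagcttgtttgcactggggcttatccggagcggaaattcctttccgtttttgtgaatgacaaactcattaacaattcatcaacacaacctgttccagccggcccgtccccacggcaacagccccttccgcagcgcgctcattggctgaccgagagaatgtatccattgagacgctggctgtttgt
Spry2: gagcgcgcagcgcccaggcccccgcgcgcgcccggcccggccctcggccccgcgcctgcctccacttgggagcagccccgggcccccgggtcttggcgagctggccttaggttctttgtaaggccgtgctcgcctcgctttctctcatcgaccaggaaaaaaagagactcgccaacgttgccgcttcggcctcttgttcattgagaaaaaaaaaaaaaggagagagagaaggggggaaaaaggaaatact

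A total of 7 motifs were searched on both strands in the windows of the 9 members that the RefSeq promoter table listed (Dusp4 is named only). The Dusp5 window held a pair of adjacent CArG boxes, the serum response factor motif, as CCATATTTGG at 82 to 73 bases and CCTTATATGG at 72 to 63 bases before the start. A CArG box was present in 1.47% of all 32851 promoter windows in the table. The Dusp1 window held the cyclic AMP response element TGACGTCA at 143 to 136 bases before the start, a motif found in 1.55% of all windows. The shorter half-site TGACG, which the full element contains on both strands, was found in the Dusp1 and Dusp5 windows and in 17.8% of all windows. The E-box CACGTG was found in the Dusp1 and Dusp2 windows and in 6.02% of all windows. The AP-1 motif TGANTCA (6.75% of all windows), the ETS motif CCGGAA (12%) and the STAT motif TTCNNNGAA (7.02%) were found in no member's window. A match of letters is a description of the window and shows neither binding nor a cause of the values that follow.

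Values are log2 expression after RMA, the Affymetrix procedure that corrects background, normalizes between arrays and summarises probes, so a difference of 1 is a 2-fold change relative to the other transcripts on the array. LSK Compound replicate 1 stood apart and was left out: its values correlated with those of the other 17 arrays at r of 0.638 to 0.672, while those 17 correlated at 0.904 or above with each other. The LSK Compound values below therefore rest on 2 arrays, and where 1 of these is left out in turn, the lone array is assumed to vary like the arrays of the other groups. These 2 arrays also differed from the other LSK arrays in sex-linked transcripts: Xist averaged 7.34 on them, against 9.28 to 9.77 on the 6 LSK Dox and LSK Control arrays, and the Y-linked Kdm5d averaged 4.42, against at most 2.67 on all other arrays in the fit. Xist read 2.34 to 3.01 on the 9 AML arrays. The Y-linked Eif2s3y and Uty read at most 2.64 and 2.53 on the 15 arrays outside LSK Compound, AML arrays included. Whether AML and LSK cells came from different animals was not tested, so effects of cell type and of source cannot be told apart. The part of the source animals in the LSK Compound results was not tested. With that array in the fit, 24 of the 42 called member results lost their call, 3 of them with a change of sign. A fit of all 18 arrays with array quality weights lost 0, but it weighted LSK Compound replicate 2 at 20.6 and replicates 1 and 3 at 0.00627 and 0.275, so its LSK Compound group was close to 1 array. As a check of induction, Klf4 was 58.7-fold higher in AML Dox than in AML Control cells and 20.8-fold higher in LSK Dox than in LSK Control cells. Sox2 and Pou5f1 were higher by 1.31 and 0.67 log2 in AML Dox cells and were not called in LSK Dox cells, and Myc fell by 4.10 in AML Dox and by 0.60 in LSK Dox cells. The leukemia gene Hoxa9 averaged 7.82 in AML Control and 5.59 in LSK Control cells. Csf1r, from the same list of 8 MLL-AF9 leukemia and myeloid genes, went the other way (AML Control minus LSK Control, -2.10 log2). That list (log2 of the sum of linear values) ran from 12.14 to 12.17 in AML Control and from 10.94 to 11.14 in LSK Control cells. The number of arrays limits the precision, and each array measures a cell population, so fewer cells of a type and less RNA per cell cannot be told apart.

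Groups were compared with limma over 16337 genes, and a gene was called at a Benjamini-Hochberg adjusted p under 0.05. All 10 members were among the tested genes and lay above the 40th percentile of the array on all 17 arrays. The median range between the highest and the lowest of the 6 group means was 1.37 log2 over the members and 0.74 over all tested genes. The members were chosen with earlier results of these data known, and the part of that choice in the wider range was not tested. The range was largest for Dusp5 (3.48), Spry2 (3.27) and Dusp6 (3.04), and smallest for Dusp10 (0.62).

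**Figure D1:**
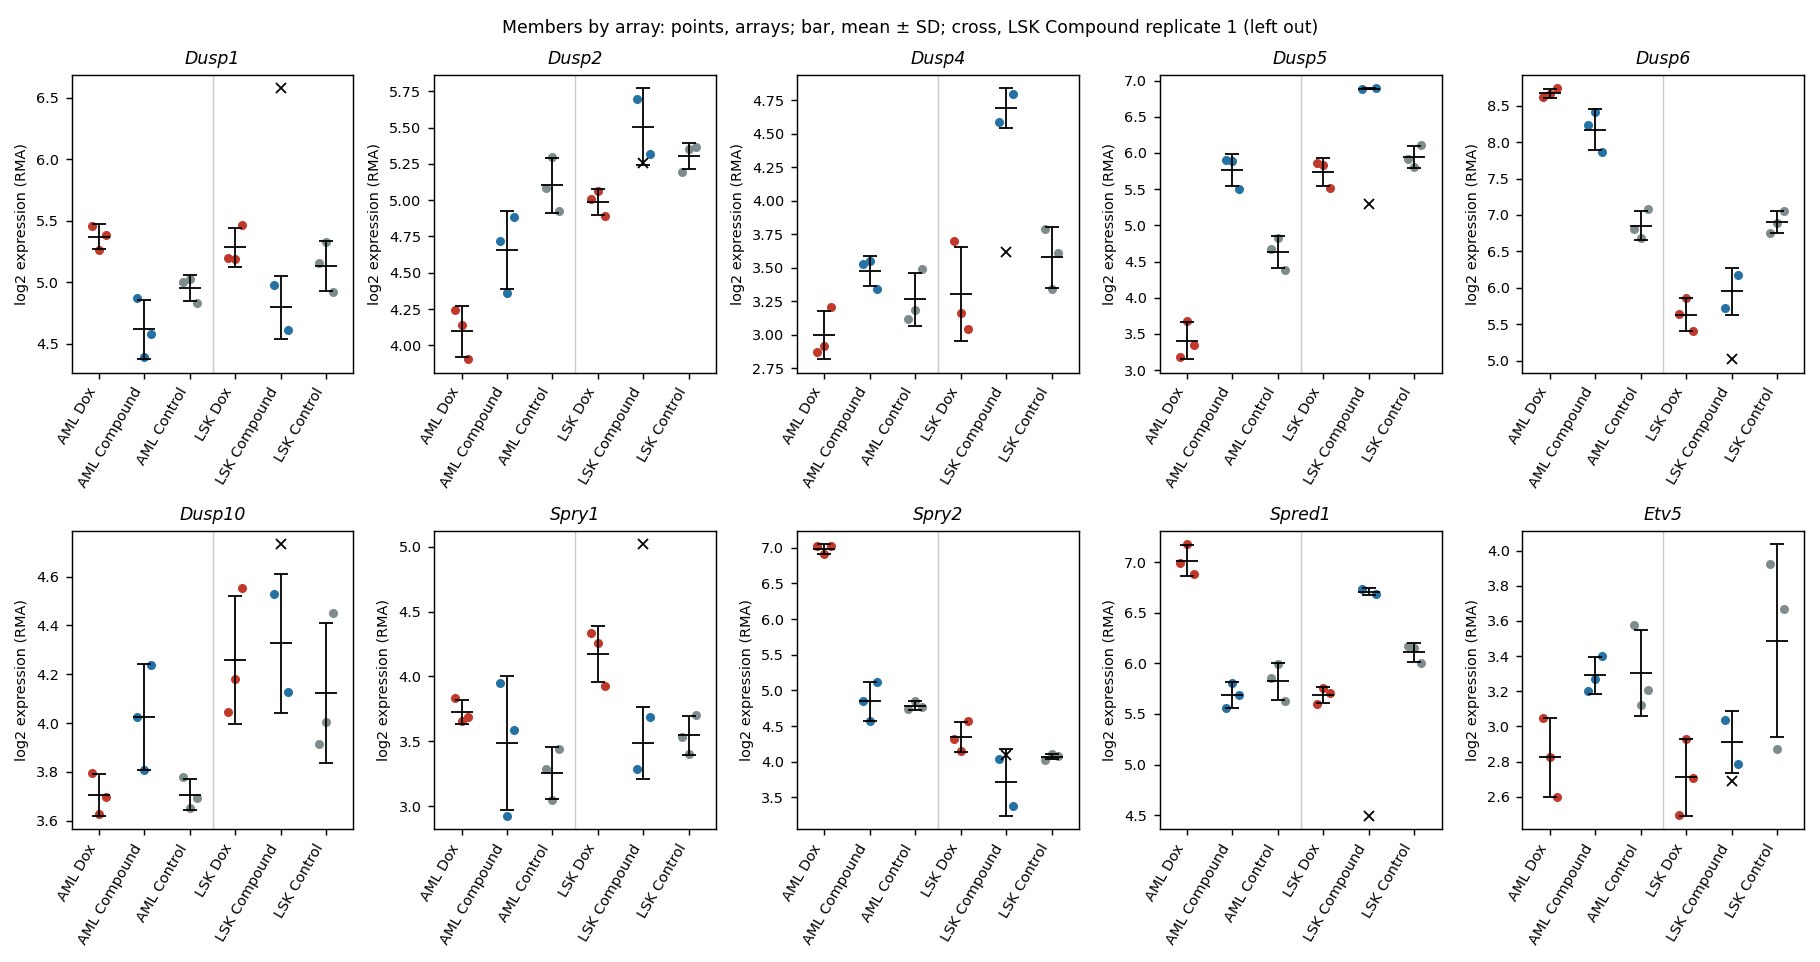
Log2 expression (vertical axes, 1 scale per gene) of the 10 members on each array, by group; points are arrays, bars show the mean ± SD (n = 3, and n = 2 for LSK Compound), and crosses mark the LSK Compound array that was left out. Dusp6 sits above control in both treated AML groups and below control in both treated LSK groups, and Spry2 stands near 7 in AML Dox cells alone.

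Dusp6, which encodes a cytoplasmic phosphatase selective for ERK, was the only member called in all 4 treatment comparisons, and its direction was opposite in the 2 cell types. Of all tested genes, 48.6% were called in AML Dox, 32% in AML Compound, 19.1% in LSK Dox and 34.2% in LSK Compound cells. The share of all tested genes called in all 4, or with opposite directions by cell type, was not counted. Dusp6 read 8.62, 8.66 and 8.74 in AML Dox cells and 8.24, 8.41 and 7.86 in AML Compound cells, against 6.80, 6.69 and 7.08 in AML Control cells. All 6 treated AML arrays lay above all 3 AML Control arrays. In normal progenitors it read 5.64, 5.85 and 5.41 with Dox and 5.72 and 6.18 with the compounds, against 6.75, 6.89 and 7.05 in LSK Control cells. All 5 treated LSK arrays lay below the LSK Control arrays. Such separation from control was common among all tested genes: 55.7% in AML Dox, 41.7% in AML Compound, 36.1% in LSK Dox and 53.3% in LSK Compound cells.

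The log2 difference of Dusp6 was 1.82 ± 0.16 (SE) in AML Dox against AML Control cells, a 3.53-fold rise (adjusted p = 2.31e-08), and 1.31 ± 0.16 in AML Compound against AML Control cells, a 2.49-fold rise (adjusted p = 5.61e-06). In LSK cells Dusp6 fell by 1.27 ± 0.16 with Dox (adjusted p = 1.59e-05) and by 0.95 ± 0.18 with the compounds (adjusted p = 0.000379). The test of the difference between the responses gave 3.08 ± 0.22 log2 for Dox (AML minus LSK, adjusted p = 6.43e-09) and 2.26 ± 0.24 for the compounds (adjusted p = 1.95e-06). Both responses of a cell type share its control arrays. No difference between the controls was called: Dusp6 averaged 6.85 ± 0.20 in AML Control and 6.90 ± 0.15 in LSK Control cells (SD, n = 3 each), a difference of -0.05 with a 95% interval of -0.38 to 0.29. With the outlying LSK Compound array, which read 5.02, in the fit, the LSK Compound difference was -1.26 and the compound responses differed by 2.57, both still called. A second Dusp6 probe set, dim on average (2.21), moved in the same directions by less: its differences from control were 0.32 with Dox and 0.18 with the compounds in AML cells, and -0.20 with Dox and -0.31 with the compounds in LSK cells, of which the first and the last were called.

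Spry2 encodes an inhibitor that acts between receptor tyrosine kinases and RAF, and its strongest expression was in AML Dox cells. Spry2 read 7.02, 6.91 and 7.02 in AML Dox cells, against 4.73, 4.86 and 4.77 in AML Control cells. This was a 4.59-fold rise (log2 difference 2.20 ± 0.15, adjusted p = 1.52e-09), the largest rise of any member in any treatment comparison. AML Compound cells, at 4.85, 4.57 and 5.12, spread on both sides of the controls (difference 0.06, 95% interval -0.27 to 0.39). Among normal progenitors the values were 4.32, 4.15 and 4.57 in LSK Dox cells and 4.04 and 3.38 in LSK Compound cells, against 4.03, 4.10 and 4.08 in LSK Control cells. The LSK differences, 0.28 with Dox and -0.36 with the compounds, were not called. The Dox response of Spry2 was larger in AML than in LSK cells by 1.92 ± 0.22 log2 (adjusted p = 1.51e-06), and the difference between the compound responses, 0.42 with an interval of -0.07 to 0.91, was not called. Without LSK Compound replicate 2, the lone LSK Compound array left gave a difference of -0.69 from LSK Control and 0.75 between the compound responses, and both were then called.

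Spry1, a second Sprouty gene, showed smaller differences. It read 4.34, 4.26 and 3.93 in LSK Dox cells, against 3.53, 3.40 and 3.70 in LSK Control cells. The groups did not overlap, as for 36.1% of all tested genes, and the rise of 0.63 ± 0.20 log2 was called (adjusted p = 0.0348). It lost the call when LSK Control replicate 1 or 2 or LSK Dox replicate 1 or 2 was left out, with adjusted p between 0.0842 and 0.12 (0.0103 to 0.686 over all alternatives). AML Dox cells, at 3.83, 3.66 and 3.69, also lay above AML Control cells, at 3.29, 3.04 and 3.44, without overlap, as for 55.7% of all tested genes. The difference of 0.47 ± 0.20 was not called (adjusted p = 0.0615). It was called under 5 alternatives, with adjusted p from 0.00809 to 0.0498. AML Compound arrays, from 2.93 to 3.95, spread across the controls, with a difference of 0.23 that was called only when AML Compound replicate 2 was left out (0.51, adjusted p = 0.0247). LSK Compound arrays read 3.29 and 3.68 and overlapped the LSK Control arrays.

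Spred1 encodes a membrane protein that recruits neurofibromin, a RAS-inactivating protein, and its responses ran in opposite directions by cell type and treatment. Spred1 read 6.99, 7.17 and 6.88 in AML Dox cells, against 5.85, 5.99 and 5.63 in AML Control cells, a rise of 1.19 ± 0.11 log2 (adjusted p = 3.88e-08). In LSK Dox cells it read 5.596, 5.754 and 5.705, against 6.166, 6.153 and 6.001 in LSK Control cells, and fell by 0.42 ± 0.11 (adjusted p = 0.0101). LSK Compound cells, at 6.73 and 6.68, lay above the same controls by 0.60 ± 0.12 (adjusted p = 0.000735). AML Compound cells, at 5.56, 5.81 and 5.69, overlapped AML Control cells (difference -0.14). The Dox response was larger in AML cells by 1.61 ± 0.15 log2 (adjusted p = 1.56e-07), and the compound response was smaller in AML cells by 0.74, that is a difference of -0.74 ± 0.16 (adjusted p = 0.00339). The compound results for Spred1 depend on leaving out LSK Compound replicate 1, which read 4.50: with it, the LSK Compound difference was -0.14 and neither comparison was called. In that fit the LSK Dox fall (adjusted p = 1) and the difference between the Dox responses (adjusted p = 0.0831) were not called either.

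Dusp5 encodes a nuclear phosphatase selective for ERK, and it moved in opposite directions under the 2 treatments of AML cells. Dusp5 read 3.18, 3.68 and 3.35 in AML Dox cells and 5.90, 5.88 and 5.51 in AML Compound cells, against 4.67, 4.83 and 4.39 in AML Control cells. The 3 groups were fully separate. Of all tested genes, 55.7% separated AML Dox from AML Control cells and 41.7% separated AML Compound from AML Control cells. AML Dox and AML Compound cells separated in 52.7%. The share with all 3 groups separate was not counted. Relative to control, Dusp5 fell by 1.23 ± 0.15 log2 with Dox (adjusted p = 2.13e-06) and rose by 1.13 ± 0.15 with the compounds (adjusted p = 1.92e-05). In LSK cells it read 5.87, 5.83 and 5.51 with Dox and 6.88 and 6.89 with the compounds, against 5.92, 5.80 and 6.11 in LSK Control cells. LSK Dox arrays overlapped the controls (difference -0.21, not called), while LSK Compound arrays lay above them by 0.94 ± 0.17 (adjusted p = 0.000276). The Dox response was lower in AML than in LSK cells, with a difference of -1.02 ± 0.21 (adjusted p = 9e-04), and the compound responses differed by 0.19, with an interval of -0.29 to 0.67. With LSK Compound replicate 1, which read 5.29, in the fit, the LSK Compound rise was 0.41 and not called (adjusted p = 0.355), the AML Compound rise had an adjusted p of 0.0526, and the Dox response difference one of 0.197. Controls differed before treatment: AML Control cells were 1.31 ± 0.15 log2 below LSK Control cells (adjusted p = 3.21e-06).

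Dusp2 encodes a nuclear phosphatase known from activated immune cells. It read 4.24, 4.14 and 3.90 in AML Dox cells and 4.72, 4.36 and 4.89 in AML Compound cells, against 5.09, 5.30 and 4.92 in AML Control cells. All 6 treated AML arrays lay below the controls. Of all tested genes, 55.7% separated from control in AML Dox and 41.7% in AML Compound cells. Dusp2 fell by 1.01 ± 0.14 log2 with Dox (adjusted p = 9.05e-06) and by 0.45 ± 0.14 with the compounds (adjusted p = 0.0218). The compound call was lost without AML Control replicate 2 (adjusted p = 0.109) or AML Compound replicate 2 (0.121), with a range of 0.00859 to 0.16 over all alternatives. In LSK cells Dusp2 read 5.01, 5.06 and 4.89 with Dox and 5.69 and 5.32 with the compounds, against 5.20, 5.35 and 5.36 in LSK Control cells, and neither LSK difference was called. The Dox difference (-0.32) was called with only the groups compared in the fit (adjusted p = 0.044), and the compound difference with array quality weights (0.39, adjusted p = 0.0014). The Dox response was lower in AML cells by a difference of -0.69 ± 0.20 (adjusted p = 0.0099). The compound responses differed by -0.65 ± 0.21 (adjusted p = 0.0438), a call lost on leaving out any of 8 of the 11 arrays in question, among them LSK Compound replicate 2 (adjusted p = 0.222).

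Dusp1 encodes a nuclear phosphatase of p38, JNK and ERK that stress and growth factors induce within minutes. It read 5.46, 5.26 and 5.39 in AML Dox cells, against 4.998, 5.025 and 4.830 in AML Control cells, without overlap, as for 55.7% of all tested genes. The rise of 0.42 ± 0.14 log2 was called (adjusted p = 0.0185) and lost the call without AML Control replicate 3 (0.36, adjusted p = 0.0766) or AML Dox replicate 1 (0.37, adjusted p = 0.0673), with a range of 0.00514 to 0.519 over all alternatives. AML Compound arrays read 4.87, 4.39 and 4.57, a difference of -0.34 from control that was called only without AML Compound replicate 1 (-0.47, adjusted p = 0.0206). LSK cells gave 5.19, 5.18 and 5.47 with Dox and 4.98 and 4.61 with the compounds, against 5.16, 5.33 and 4.92 in the controls. The LSK Compound difference of -0.34 was called only without LSK Control replicate 3 or LSK Compound replicate 2 (adjusted p = 0.0475 each). LSK Compound replicate 1, left out, read 6.58.

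Dusp4, which encodes a nuclear phosphatase of ERK and JNK, was called in LSK Compound cells alone among the treatment comparisons. It read 4.59 and 4.80 in LSK Compound cells, against 3.79, 3.34 and 3.61 in LSK Control cells, a rise of 1.11 ± 0.18 log2 (adjusted p = 0.000112). With LSK Compound replicate 1, which read 3.62, in the fit, the rise was 0.76 (adjusted p = 0.0593). LSK Dox arrays, at 3.70, 3.16 and 3.05, overlapped the controls, and the difference of -0.28 was called only without LSK Dox replicate 1 (-0.48, adjusted p = 0.0413). AML arrays read 2.87, 2.91 and 3.21 with Dox and 3.52, 3.55 and 3.34 with the compounds, against 3.11, 3.19 and 3.49 in AML Control cells. Neither AML group separated from the controls. The compound response was lower in AML than in LSK cells (difference -0.90 ± 0.24, adjusted p = 0.0155), a call lost without LSK Compound replicate 3, although the difference stayed at -0.80 (adjusted p = 0.0844).

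Dusp10, whose product acts on JNK and p38 rather than ERK, was called in 0 of the 9 comparisons. Its group means ran from 3.71 ± 0.08 in AML Dox cells to 4.33 ± 0.28 in LSK Compound cells (SD, n = 3 and n = 2). Its largest treatment difference was 0.32 in AML Compound cells, with an interval of -0.02 to 0.65. Its unadjusted limma p was under 0.05 in only 1 of the 9 comparisons, AML Control against LSK Control. There the difference was -0.42 (adjusted p = 0.0584), and it was called without LSK Control replicate 1 (adjusted p = 0.0356) and under 3 other alternatives (adjusted p from 0.0189 to 0.0499). Dusp10 was also called in AML Dox against AML Compound cells after median centring (adjusted p = 0.0499) or quantile normalization (0.036), and in LSK Compound against LSK Control cells with array quality weights (0.00269).

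Etv5 encodes an ETS transcription factor that ERK signalling induces, and its calls changed with single arrays. Etv5 was dim, averaging 2.71 in LSK Dox and 2.82 in AML Dox cells, where the array medians were 2.65 to 2.75 over the 17 arrays. It read 2.49, 2.93 and 2.71 in LSK Dox cells, against 3.92, 2.87 and 3.67 in LSK Control cells. LSK Control replicate 2 lay within the LSK Dox range, so the groups overlapped. The fall of 0.78 ± 0.21 log2 was called (adjusted p = 0.0149), but not without LSK Control replicate 1 (0.088), LSK Control replicate 3 (0.0658) or LSK Dox replicate 1 (0.0684), with a range of 0.000244 to 0.135 over all alternatives. LSK Compound arrays read 3.04 and 2.79, a difference of -0.58 that was not called, but was without LSK Control replicate 2 (-0.88, adjusted p = 0.00128) and with array quality weights (-0.47, adjusted p = 0.0109). AML arrays read 3.05, 2.82 and 2.60 with Dox and 3.20, 3.27 and 3.40 with the compounds, against 3.58, 3.12 and 3.21 in the controls. The AML Dox arrays all lay below the AML Control arrays, and 55.7% of all tested genes separated in that comparison. The Etv5 difference of -0.48 ± 0.21 was not called. It was called without AML Dox replicate 1 (-0.59, adjusted p = 0.0496) and under 4 other alternatives, with adjusted p from 0.0273 to 0.0366. A second Etv5 probe set (mean 2.74, against 3.10 for the one used) was called in none of the 9 comparisons, with an unadjusted limma p of 0.264 at the least. Its differences from control were 0.095 in LSK Dox, -0.030 in LSK Compound, 0.129 in AML Dox and 0.151 in AML Compound cells. All but the LSK Compound one were opposite in sign to those of the probe set used. With the mean of both probe sets, the LSK Dox fall was not called.

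**Figure D2:**
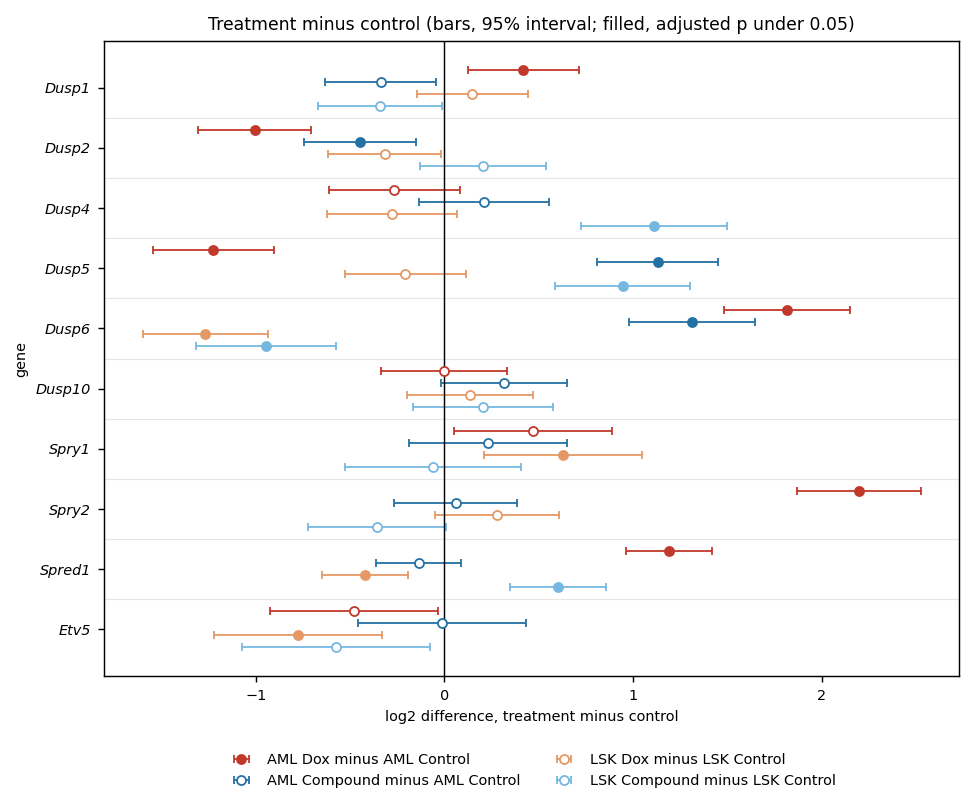
Log2 difference of treatment minus control (horizontal axis) for each member in the 4 treatment comparisons; points are limma estimates, bars are 95% intervals, and filled points have an adjusted p under 0.05. Dusp6 lies at 1.82 and 1.31 in the treated AML groups and at -1.27 and -0.95 in the treated LSK groups, and Dusp5 lies at -1.23 with Dox and 1.13 with the compounds in AML cells.

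Counted over the members, AML Dox against AML Control gave 4 rises (Dusp1, Dusp6, Spry2 and Spred1) and 2 falls (Dusp2 and Dusp5), while 48.6% of all tested genes were called in that comparison, 23% higher and 25.6% lower. In LSK Dox against LSK Control cells, 1 member rose (Spry1) and 3 fell (Dusp6, Spred1 and Etv5), against 19.1% of all tested genes called (9.21% higher and 9.93% lower). Leaving out LSK Control replicate 1 reduced these 4 called members to 2, since Spry1 and Etv5 lost their calls. AML Compound against AML Control cells gave 2 rises (Dusp5 and Dusp6) and 1 fall (Dusp2), against 32% of all tested genes called (12.8% higher and 19.2% lower). LSK Compound against LSK Control cells gave 3 rises (Dusp4, Dusp5 and Spred1) and 1 fall (Dusp6), against 34.2% called (14.2% higher and 20% lower). Each treated group thus held members that rose and members that fell. With so many genes called in each comparison, the members' counts stood near the background in AML Dox (60% of members), AML Compound (30%) and LSK Compound cells (40%). In LSK Dox cells 40% of the members were called, against the 19.1% of all tested genes.

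Before treatment, the 2 cell types differed in 2 members. Spry2 was 0.71 ± 0.15 log2 higher in AML Control than in LSK Control cells (adjusted p = 0.00176), and Dusp5 was lower, as given above, while 29.6% of all tested genes were called (15.4% higher and 14.2% lower). The other members had differences between -0.42 and -0.05. Spred1 (-0.28, adjusted p = 0.0576) was called without AML Control replicate 2 (adjusted p = 0.0265) and under 6 other alternatives (adjusted p from 0.0274 to 0.0467), and Etv5 (-0.18) without LSK Control replicate 2 (-0.49, adjusted p = 0.04).

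The difference between AML and LSK cells in the Dox response was called for 5 members: it was positive for Dusp6, Spry2 and Spred1 and negative for Dusp2 and Dusp5, against 40.1% of all tested genes called (18.6% positive and 21.5% negative). Etv5 joined them only without LSK Control replicate 2 (0.60, adjusted p = 0.0428). For the compound response it was called for 4 members, positive for Dusp6 and negative for Dusp2, Dusp4 and Spred1, against 17.1% called (8.69% positive and 8.37% negative). Etv5 was called there without LSK Control replicate 2 (0.87, adjusted p = 0.0181). Dusp6 had the largest difference of any member in both responses.

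**Figure D3:**
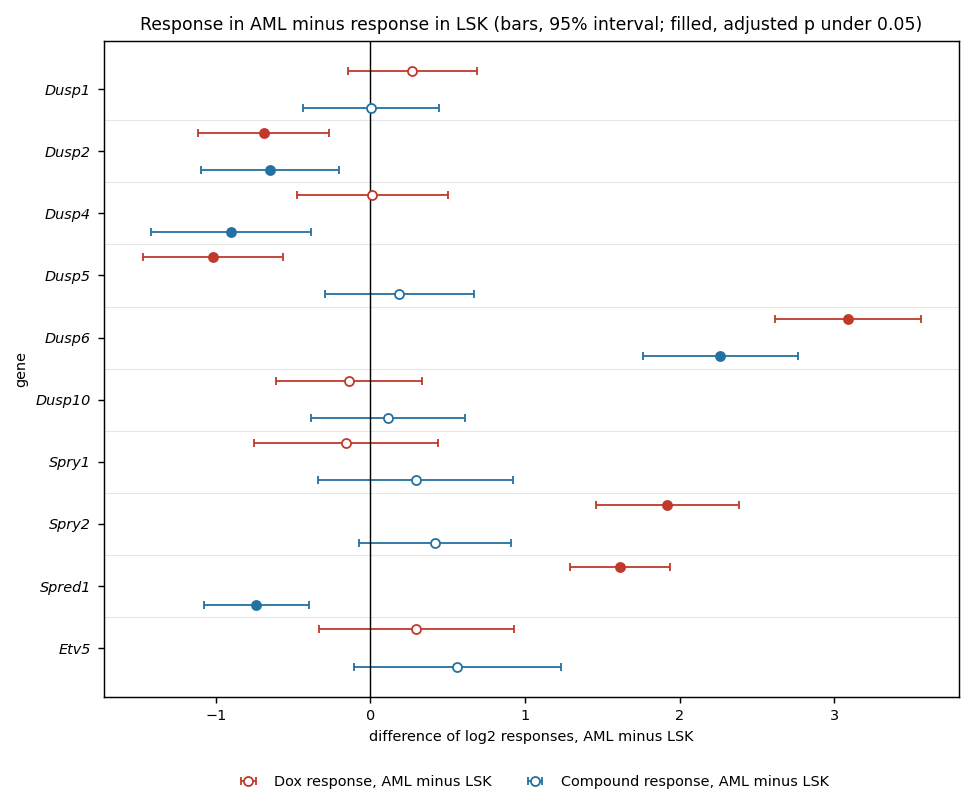
Response in AML cells minus response in LSK cells (horizontal axis, difference of log2 differences) for each member, with Dox and with the compounds; bars are 95% intervals and filled points have an adjusted p under 0.05. Dusp6 lies farthest to the right in both, at 3.08 and 2.26, and Spred1 lies at 1.61 with Dox and -0.74 with the compounds.

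The 2 treatments were also compared directly, which avoids shared control arrays. AML Dox cells were higher than AML Compound cells in Dusp1 (0.75), Dusp6 (0.50), Spry2 (2.14) and Spred1 (1.33) and lower in Dusp2 (-0.56), Dusp4 (-0.47) and Dusp5 (-2.36), all called, against 47.7% of all tested genes called (23% higher and 24.7% lower). The Dusp5 difference, a level 5.12-fold lower with Dox than with the compounds, had an adjusted p of 5.52e-10. The Dusp4 call was lost without AML Dox replicate 1 or 2 or AML Compound replicate 1 or 2 (adjusted p between 0.0643 and 0.0847), and the Dusp6 call without AML Compound replicate 3 (0.35, adjusted p = 0.0844). Etv5 was not called (-0.47), but was under 3 alternatives, with adjusted p from 0.015 to 0.0454.

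In normal progenitors LSK Dox cells were higher than LSK Compound cells in Dusp1 (0.49), Spry1 (0.69) and Spry2 (0.64) and lower in Dusp2 (-0.52), Dusp4 (-1.39), Dusp5 (-1.15) and Spred1 (-1.02), against 32.3% of all tested genes called (18% higher and 14.3% lower). The calls of Dusp4, Dusp5 and Spred1 held on leaving out any 1 of the 5 arrays. Those of Dusp1, Dusp2, Spry1 and Spry2 did not: their adjusted p reached 0.288, 0.231, 0.224 and 0.254 when LSK Compound was reduced to 1 array (without replicate 3, 2, 2 and 3 in that order). Dusp1 (adjusted p = 0.0899) and Dusp2 (0.0565) were also lost without LSK Dox replicate 3, and Spry1 without LSK Dox replicate 1 (0.0778) or 2 (0.0648). With LSK Compound replicate 1 in the fit, Dusp4 was the only member called (-1.03, adjusted p = 0.0143), and Dusp1 had a difference of -0.11.

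Members differed in which groups they were high. Across the 17 arrays, the most opposed pairs were Dusp5 and Spry2 (Pearson r = -0.91), Dusp2 and Spry2 (-0.86) and Dusp2 and Dusp6 (-0.78). The most alike were Dusp2 and Dusp5 (0.76), Dusp6 and Spry2 (0.75) and Dusp4 and Dusp5 (0.75). The tested genes most like Dusp5 were Cdkn1a (r = 0.986), Lcp2 (0.985) and Cish (0.983). Those most like Spry2 were Mib1 (0.978), Mid1ip1 (0.976) and Tspan17 (0.974), and those most like Dusp6 were Agtpbp1 (0.951), Slc25a1 (0.950) and Prkra (0.939). The best matches of Dusp4 (Tnfsf10, 0.947), Dusp2 (Gapdh, 0.938), Spred1 (Camsap1, 0.935), Dusp1 (Ubxn6, 0.903), Spry1 (Btg2, 0.837), Dusp10 (Htr2a, 0.831) and Etv5 (Fam234b, 0.778) were looser. These correlations describe 17 arrays that fall into 6 groups and share those groups' treatments, cell types and normalization.

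Other genes of the same families moved with or against the members. Dusp16, whose product acts on JNK and p38, read 5.79, 6.08 and 5.75 in AML Dox cells and 3.37, 3.33 and 2.87 in AML Compound cells, against 2.54, 2.27 and 2.74 in AML Control cells. It rose by 3.35 ± 0.16 log2 with Dox (adjusted p = 1.15e-11) and by 0.67 ± 0.16 with the compounds (adjusted p = 0.0039). The AML Control values lay near the 40th percentile of those arrays (2.34 to 2.36), with 2.27 below it, so the size of these rises is uncertain. In LSK cells the order was turned round: Dusp16 read 3.78, 3.53 and 3.97 with Dox and 5.93 and 6.38 with the compounds, against 3.21, 3.29 and 3.18 in LSK Control cells. The LSK Compound rise was 2.93 ± 0.18 (adjusted p = 9.13e-10). The LSK Dox difference of 0.54 (adjusted p = 0.0274) lost its call on leaving out 5 of the 6 arrays. The responses of Dusp16 differed by 2.82 for Dox and -2.26 for the compounds (AML minus LSK, adjusted p = 2.82e-08 and 2.89e-06).

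Dusp7, which encodes a cytoplasmic ERK phosphatase close to that of Dusp6, read 4.07, 4.20 and 3.93 in AML Dox cells, against 5.36, 5.80 and 5.52 in AML Control cells, and fell by 1.495 ± 0.111 (adjusted p = 2.97e-09). It also fell in LSK Compound cells (4.69 and 4.80, against 6.02, 6.18 and 5.98 in LSK Control cells, difference -1.31 ± 0.12, adjusted p = 2.07e-07). The AML Dox cells thus held more Dusp6 and less Dusp7 transcript than AML Control cells. Spred2 and Spred3, the relatives of Spred1, rose by 1.15 ± 0.14 and 1.01 ± 0.15 in AML Dox cells (adjusted p = 2.2e-06 and 1.51e-05). Neither was called in LSK Dox or LSK Compound against LSK Control cells. Spred2 fell by 0.43 in AML Compound cells (adjusted p = 0.03), a call lost without AML Control replicate 1 or 3 or AML Compound replicate 3. Spry4 was called in none of the 4 treatment comparisons (differences between -0.33 and 0.15).

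**Figure D4:**
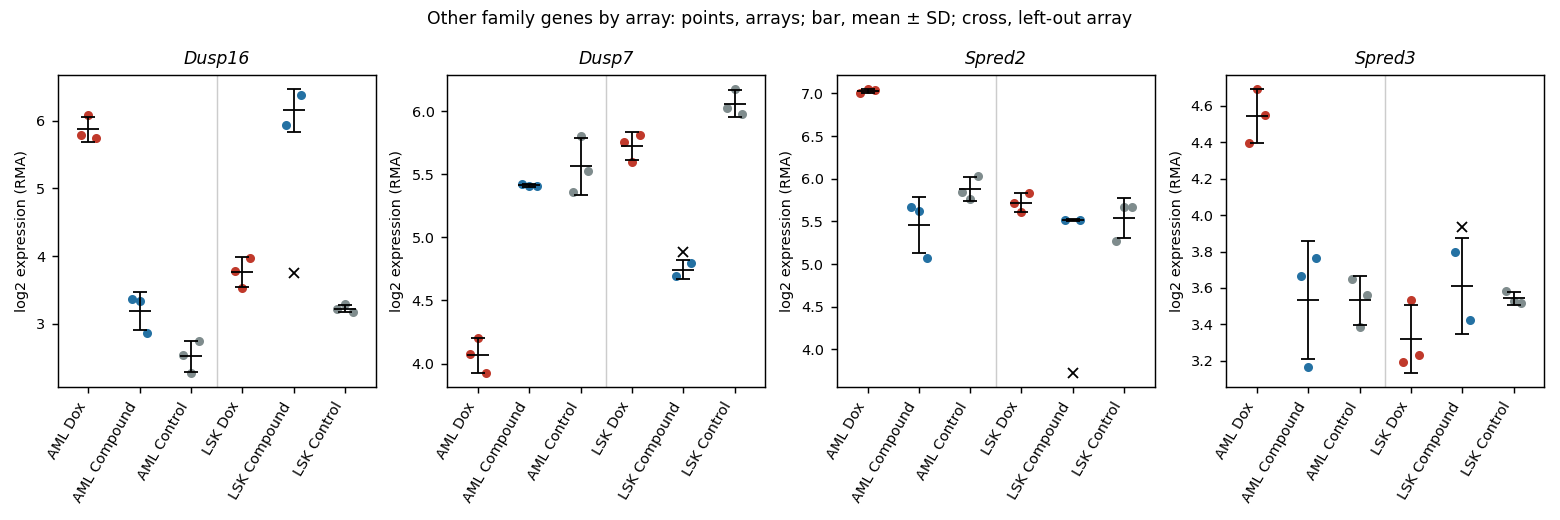
Log2 expression (vertical axes, 1 scale per gene) of Dusp16, Dusp7, Spred2 and Spred3 on each array, by group; points are arrays, bars show the mean ± SD (n = 3, and n = 2 for LSK Compound), and crosses mark the array left out. Dusp16 averages 5.87 in AML Dox and 6.15 in LSK Compound cells and at most 3.76 in the other groups, and Dusp7 is lowest in those same 2 groups.

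Among 11 other tested ERK output genes, AML Compound cells had 6 rises and 0 falls relative to AML Control cells, at a median difference of 0.53 log2 (all tested genes: -0.03) and with 0 falls and 7 rises at an unadjusted limma p under 0.05. Of all tested genes 12.8% rose and 19.2% fell in that comparison. The rises included Fos (2.46 ± 0.15, adjusted p = 1.57e-09) and Egr1 (0.58 ± 0.12, adjusted p = 0.000942), immediate early transcription factor genes, and the early response gene Ier3 (1.24 ± 0.12, adjusted p = 5.76e-07). AML Dox cells had 1 rise and 1 fall in this list (18.2% called, against 48.6% of all tested genes), and Ier3 fell by 1.49 ± 0.12 (adjusted p = 1e-08). LSK Dox and LSK Compound cells had 2 rises and 2 falls each (36.4% called, against 19.1% and 34.2% of all tested genes in that order). Ier3 rose in both LSK groups, by 1.26 ± 0.12 with Dox (adjusted p = 7.95e-07) and by 2.84 ± 0.14 with the compounds (adjusted p = 3.11e-11). Cyclin D1 (Ccnd1), which drives entry into the cell cycle, fell by 1.43 ± 0.16 in LSK Dox cells (adjusted p = 6.92e-06).

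Of 14 adaptor, exchange factor and RAS GTPase-activating genes, AML Dox cells had 8 rises and 4 falls (85.7% called, against 48.6% of all tested genes), with a median difference of 0.49 (all tested genes: -0.01). Among the rises were 3 genes of this list for RAS GTPase-activating proteins, which switch RAS off, while 23% of all tested genes rose. These were Nf1 (neurofibromin, the partner of Spred1) by 2.44 ± 0.09 (adjusted p = 2.87e-13), Rasa1 by 2.12 ± 0.09 (adjusted p = 3.41e-12) and Rasa2 by 1.09 ± 0.11 (adjusted p = 2.21e-07). Genes for such proteins outside this list were not examined. The exchange factor gene Rasgrp2, whose product acts mainly on the RAS relative RAP1, fell by 2.81 ± 0.12 (adjusted p = 3.65e-12). In AML Compound cells 5 of the 14 rose and 9 fell (32% of all tested genes were called), with Rasa2 down by 1.01 ± 0.11 (adjusted p = 2.54e-06) and Nf1 up by 0.49 ± 0.09 (adjusted p = 3e-04). LSK Dox cells had 4 rises and 2 falls (42.9%, against 19.1%), led by the exchange factor gene Rasgrp1 (1.30 ± 0.13, adjusted p = 9.32e-07). LSK Compound cells had 4 rises and 5 falls (64.3%, against 34.2%), with Rasgrp1 up by 1.496 ± 0.142 (adjusted p = 2.2e-07) and Rasgrp2 down by 2.48 ± 0.14 (adjusted p = 2.3e-10).

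Of 12 kinases and RAS genes of the cascade, AML Dox cells had 4 rises and 3 falls (58.3% called, against 48.6% of all tested genes): p38-alpha (Mapk14) fell by 2.13 ± 0.09 (adjusted p = 2.03e-12) and its activating kinase gene Map2k3 by 0.96 ± 0.11 (adjusted p = 8.3e-07), while the JNK gene Mapk9 rose by 0.87 ± 0.11 (adjusted p = 3.42e-06). LSK Dox cells had 0 rises (1 at an unadjusted limma p under 0.05) and 2 falls (16.7%, against 19.1%), AML Compound cells 2 rises and 4 falls (50%, against 32%), and LSK Compound cells 4 rises and 3 falls (58.3%, against 34.2%). Mapk14 also fell by 0.67 ± 0.09 in AML Compound cells (adjusted p = 1.94e-05) and by 0.90 ± 0.10 in LSK Compound cells (adjusted p = 1.64e-06).

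Of 9 genes for receptors upstream of RAS, AML Dox cells had 2 rises and 4 falls (66.7% called, against 48.6% of all tested genes), with the stem cell factor receptor gene Kit down by 2.78 ± 0.15 (adjusted p = 4.11e-11) and the granulocyte colony-stimulating factor receptor gene Csf3r down by 2.24 ± 0.10 (adjusted p = 5.94e-12). AML Compound cells had 4 rises and 1 fall (55.6%, against 32%), with the macrophage colony-stimulating factor receptor gene Csf1r up by 2.79 ± 0.14 (adjusted p = 1.86e-10) and Kit up by 1.54 ± 0.15 (adjusted p = 4.93e-07). LSK Dox cells had 1 rise and 5 falls (66.7%, against 19.1%), and LSK Compound cells 3 rises and 3 falls (66.7%, against 34.2%). Csf3r fell in both, by 1.35 ± 0.10 with Dox (adjusted p = 4.22e-08) and by 1.24 ± 0.11 with the compounds (adjusted p = 1.66e-07). In AML Control against LSK Control cells, 2 of the 9 were higher and 6 lower, with Flt3 lower by 4.09, that is a difference of -4.09 ± 0.18 (adjusted p = 1.24e-11).

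Macrophage markers were higher in sum with the compounds, and also with Dox in LSK cells. The summed level of 5 such markers (log2 of the sum of linear values) ran from 10.54 to 10.81 in AML Compound cells and from 7.67 to 7.75 in AML Control cells. It ran from 10.001 to 10.089 in LSK Compound, from 9.11 to 9.30 in LSK Dox and from 8.81 to 8.95 in LSK Control cells. Adgre1, the gene of a macrophage surface marker, averaged 9.43 in AML Compound cells, against 5.87 in AML Control cells, and 8.69 in LSK Compound cells, against 4.45 in LSK Control cells. The macrophage genes C1qa and Mrc1 averaged only 3.09 and 2.58 in AML Compound cells, where the 40th percentile of an array was 2.32 to 2.41 over the 17 arrays. In LSK Compound cells 4 of the 5 markers lay above that percentile on all arrays, against 5 in LSK Control cells. Mature neutrophil markers (6 genes) summed to 8.54 to 8.95 in AML Compound cells, against 5.02 to 5.28 in AML Control cells, and mast cell and basophil markers (4 genes) to 8.40 to 8.41 in LSK Compound and 5.27 to 5.44 in LSK Dox cells, against 7.52 to 7.53 in LSK Control cells. In LSK Compound cells the neutrophil sum was 8.64 to 8.65, against 9.31 to 9.42 in LSK Control cells, and the sum of 8 MLL-AF9 leukemia and myeloid genes was 8.93 to 8.94, against 10.94 to 11.14. Stromal and endothelial markers (5 genes) summed there to 8.95 to 9.03, against 7.36 to 7.46 in LSK Control cells, and megakaryocyte markers (3 genes) to 7.08 to 7.70, against 5.83 to 6.28. The stromal and endothelial sum was also higher in AML Compound cells (9.41 to 9.50, against 8.51 to 8.55 in AML Control cells). With Dox it was above the controls too, at 8.25 to 8.51 in LSK Dox and 8.71 to 8.77 in AML Dox cells. The part of these markers in the changes of the members, with the compounds or with Dox, was not tested. In AML Dox cells the macrophage sum was lower than in controls, at 6.23 to 6.48, and the progenitor marker sum, over 7 genes, was 7.01 to 7.18, against 9.23 to 9.32 in AML Control cells. The 5 T and NK cell markers summed to at most 4.70 on any array.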

How the data were processed

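RNA was measured on 1-colour Affymetrix whole-transcript arrays: 18 arrays in 6 groups, set by the sample titles. The values are log2 expression per probe set, as deposited by the authors, who used RMA, per the submitters' processing notes. Its version was not given in the sources used here, nor was the genome build. No further scaling was applied.

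Of 41345 probe sets, the platform annotation gave 1 gene for 23521 and several for 1814, and did not list 16010. This left 22180 genes, each read by its probe set of highest mean. Dusp6 and Etv5 had 2 probe sets each, and for both genes the differences of the second one from control are given. Genes above the 40th percentile of the array on at least 3 arrays were tested (16337). Tests on 17 arrays used limma (version 3.58.1, under R 4.3.3), with a mean for each group, moderated variances and 11 residual degrees of freedom, and Benjamini-Hochberg adjustment over all tested genes in each of 9 comparisons. The script was tested on simulated data. Arrays carry no read depth, so the number of arrays limits the precision.

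The members and gene lists were chosen with earlier results of these data known. The genes named are all members, up to 4 called genes with the smallest p from each of 6 pathway lists and the 3 genes most correlated with each member; fewer are given where more would add little. Family genes, induction checks and markers are given with values for description. Alternatives tried were all 18 arrays with and without array quality weights, the groups compared alone, a block for the replicate number, leaving out every array once, median centring, quantile normalization, no or a stricter filter (60th percentile), the mean of a gene's probe sets, dim values set to the filter level, an intensity trend, and, added after the data were seen, leaving out all LSK Compound arrays.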

Additional observations from a re-analysis of the deposited data

Results flagged for a closer look

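The results listed here are differences between the cell types in the same response (AML minus LSK, log2, limma adjusted p under 0.05), for members and the pathway genes that the naming rule gives.

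For the Dox response the members were Dusp6 (3.08), Spry2 (1.92), Spred1 (1.61), Dusp2 (-0.69) and Dusp5 (-1.02). Other phosphatase and Spred genes were Dusp16 (2.82), Dusp7 (-1.16), Spred3 (1.24) and Spred2 (0.97). ERK output genes were Ier3 (-2.75), Ccnd1 (1.19) and Epha2 (-0.52), and cascade genes were Mapk14 (-1.92), Map2k3 (-1.16), Mapk8 (1.20) and Mapk9 (0.83). RAS regulators were Rasgrp2 (-3.67), Nf1 (2.502), Rasa1 (2.06) and Rasa2 (1.59). Receptor genes were Kit (-2.02), Csf2ra (-1.02), Csf3r (-0.89) and Il3ra (0.98).

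For the compound response the members were Dusp6 (2.26), Dusp2 (-0.65), Dusp4 (-0.90) and Spred1 (-0.74). Other phosphatase genes were Dusp16 (-2.26) and Dusp7 (1.16). ERK output genes were Fos (2.41), Ier3 (-1.60), Egr1 (1.09) and Epha2 (0.84), and the cascade gene was Map2k1 (-0.61), which lost its call without LSK Compound replicate 3. RAS regulators were Rasgrp2 (1.87), Rasa2 (-1.06), Rasgrp1 (-0.96) and Rasa1 (0.59). Receptor genes were Csf1r (3.25), Flt3 (1.39), Csf3r (0.71) and Il3ra (-0.59), of which Il3ra lost its call on leaving out any of 8 arrays. Dusp16 and Dusp7 thus differed between the cell types in opposite directions under the 2 treatments. All compound values rest on 2 LSK Compound arrays.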

How the results depend on the processing

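Of the 42 called member results, 18 kept their direction and call in all alternatives run, and 30 did so when the unweighted fit of all 18 arrays was set aside. In that fit the counts of all genes called, in the order of Dox in AML and LSK, compounds in AML and LSK, the Dox and compound response differences, the controls, and Dox against compounds in AML and LSK, were 4240, 602, 1064, 2925, 2227, 520, 1433, 3888 and 2547, against 7935, 3127, 5232, 5590, 6547, 2786, 4828, 7791 and 5283 without LSK Compound replicate 1. Called members fell to 1 (LSK Dox), 1 (AML Compound), 1 (LSK Compound), 2 (Dox response), 1 (compound response), 4 (AML Dox against Compound) and 1 (LSK Dox against Compound). Signs turned there for Spred1 (LSK Compound -0.14, compound response 0.000226), Dusp1 (LSK Dox against Compound -0.11), Map2k1 (LSK Compound -0.00149) and Kit (LSK Compound -0.41). Array quality weights on all 18 arrays gave 7 called members and 8685 genes for LSK Compound, 4 members for the controls, and 4784 and 8641 genes for the compound response and LSK Dox against Compound. The stricter filter gave 4 members for the controls. Apart from leaving out arrays, 12 member results that were not called became so under at least 1 alternative, among them Spry1 in the compound response (0.67, adjusted p = 0.0269) and Dusp10 in LSK Dox against LSK Compound (-0.29, adjusted p = 0.0249), both with array quality weights. The cause was not tested.

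With 1 array left out, called members in LSK Dox ran from 2 to 4. The replicate number as a block, where 1 of 19 same-numbered pairs of arrays had deviations that correlated above 0.1 (-0.06 to 0.10), gave 7886 genes and 7 members for AML Dox, and 5141 and 3 for AML Compound. It ended the call of Dusp2 in the compound response (-0.66, adjusted p = 0.0557). Of 162 named pathway results, 93 held in all alternatives run and 144 did so with the unweighted fit of all 18 arrays set aside.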
